A study of Mus musculus with 12 samples.

Results

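The genes described here are 9 secreted antagonists of Wnt signaling, Dkk2, Dkk3, Notum, Sfrp1, Sfrp2, Sfrp4, Frzb, Wif1 and Sostdc1, together with the membrane receptor Kremen1, followed in dermal papilla (DP) cells of the mouse hair follicle. They were taken by gene name, and all 10 were present among the 15209 protein-coding genes tabulated at postnatal day 14 (P14) and among the 15334 tabulated at P16. RNA was sequenced from 3 control and 3 dMF1/2 mice on each day, 12 libraries in all, each mouse being a biological replicate, and every sample is labelled anagen, the growth phase of the hair cycle. In dMF1/2 mice both Fgfr1 and Fgfr2 carried floxed alleles on both chromosomes, which Cor-cre, a Cre driven from the Corin locus that is specific to the DP in the skin, recombined. The labels call the controls wild type, whereas the study's methods describe them as either Cor-cre mice heterozygous for both floxed genes or Cre-negative mice homozygous for both floxed genes. Which of these each control mouse was is not given in the sources used here. A ROSA26 YFP reporter that needs Cre marked the DP cells, which were sorted by 2 rounds of FACS from dissociated whole skin. The sort thus selected for cells in which Cre had been active, and markers of other cell types are given below. Control cells with YFP would come from the Cor-cre genotype, which can lose a copy of each receptor gene.

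Wnt ligands carry a lipid that fits a groove in Frizzled receptors, and canonical signaling starts when a ligand joins a Frizzled receptor to an LRP co-receptor. Secreted antagonists act at different points of this step. Sfrp proteins, Frzb and Wif1 bind the ligand, Notum is an extracellular enzyme that removes its lipid, and Dkk proteins and Sostdc1 act on the LRP co-receptors. Kremen1 is a transmembrane protein that binds Dkk proteins and takes part in removing LRP from the cell surface. The DP is a cluster of mesenchymal cells at the base of the follicle that exchanges Wnt, FGF and BMP signals with the epithelial matrix above it, and the end of anagen is followed by catagen, the phase of regression.

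The libraries held 19302358 to 29860750 reads over the tabulated genes. Values below are normalized reads, that is reads divided by a size factor of the library, and differences are on the scale of log2(normalized reads + 1), given as dMF1/2 minus control or as P16 minus P14. Fgfr1 was lower in every dMF1/2 library than in any control library on each day, by 0.40 at P14 (limma's adjusted p = 0.501) and by 0.50 at P16 (limma's adjusted p = 0.130, or 0.0109 once same-numbered libraries were blocked as pairs), and the Fgfr2 groups overlapped on each day. The reads are summed over whole genes, so they do not show which exons were present. The summed level of 10 DP markers, on a scale common to the 12 libraries, ran from 78922 to 114736 in P14 control, from 75007 to 125244 in P14 dMF1/2, from 38911 to 61872 in P16 control and from 70917 to 103130 in P16 dMF1/2 libraries, with none of the 10 at 0 in any library. The sum was thus lower in all P16 controls than in every other library. The summed keratinocyte markers stayed between 233 and 786 and the melanocyte markers between 43.5 and 83.5, with Krt35, Dct and Tyrp1 at 0 in at least 1 library. Dermal fibroblast markers, at 96575 to 152534 in P14 control, 92726 to 164043 in P14 dMF1/2, 149018 to 198226 in P16 control and 132760 to 196881 in P16 dMF1/2 libraries, overlapped between genotypes on each day, and none of the 8 passed by limma between genotypes, while at P16 the block called 1 higher and 1 lower. Summed endothelial markers were low, at 354 to 1034 over the P16 control and 493 to 799 over the other libraries, although their median gene changed by 1.71 between the days in control mice, where Emcn rose, and differed by -1.05 between genotypes at P16, where none of the 5 passed by limma and Pecam1 was lower with same-numbered libraries blocked as pairs. The adipocyte marker Plin1 was higher in dMF1/2 mice at P16 by 2.43 (limma's adjusted p = 0.00604) and fell by 2.37 in control mice between the days (limma's adjusted p = 0.00558), the directions of Sfrp2, at 62.7 ± 23.2 (SD, n = 3) normalized reads in P16 control and 331 ± 67.6 in P16 dMF1/2 libraries. Fabp4, the other adipocyte marker tested, had the opposite signs, at -1.02 between genotypes at P16 (adjusted p = 0.109 by limma and 0.0238 with the block) and at 0.66 between the days in control mice (limma's adjusted p = 0.275). Summed immune markers lay between 81.1 and 369 and summed muscle markers between 86.9 and 455. No immune marker passed by limma. The only muscle marker to pass was Mylpf, which fell in dMF1/2 mice between the days, where the median muscle marker changed by -1.27. The part of these cell types in the results below was not tested. In bulk RNA, fewer cells of a type and less RNA per cell cannot be told apart. Col1a1 was lowest in the P14 libraries numbered 1 of each genotype, at 1285380 and 1792183 against 2871259 or more elsewhere, and P16 control replicate 1 had the lowest DP marker sum. The summed dermal sheath markers were lowest in replicate 1 of all 4 groups, at 16784 to 19065 against 24376 to 49153 in the other libraries, and none of the 6 passed by limma without the block in any comparison. With the block at P14, the sheath marker Itga8 was lower at -0.43 (adjusted p = 0.043). Of the DP markers, Alpl was then higher at 1.41 (0.00315) and Vcan lower at -0.61 (0.0223). The part of these deviations and marker differences in the results was not tested.

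Each of the 10 genes was detected in all libraries, and the levels spanned more than an order of magnitude. Per kilobase of exon, on the common scale, the median over the 12 libraries was highest for Wif1 at 11714 reads, followed by Sostdc1 at 5446, Sfrp1 at 4366, Dkk2 at 2226, Notum at 1801 and Sfrp2 at 1567. Dkk3 had 1106, Frzb 614, Kremen1 537 and Sfrp4 434. The order is not fixed across groups, as Wif1 alone was above the other 9 genes in every group mean and neighbouring genes overlapped in their ranges over the 12 libraries. In P16 control libraries the Sostdc1 mean was 1988 ± 1170 (SD, n = 3) reads per kilobase, below Dkk2 at 3797 ± 243 and Notum at 3781 ± 499. In P16 dMF1/2 libraries Sostdc1 was at 8620 ± 2454, above Dkk2 at 1812 ± 445 and Notum at 1428 ± 708.

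**Figure D1:**
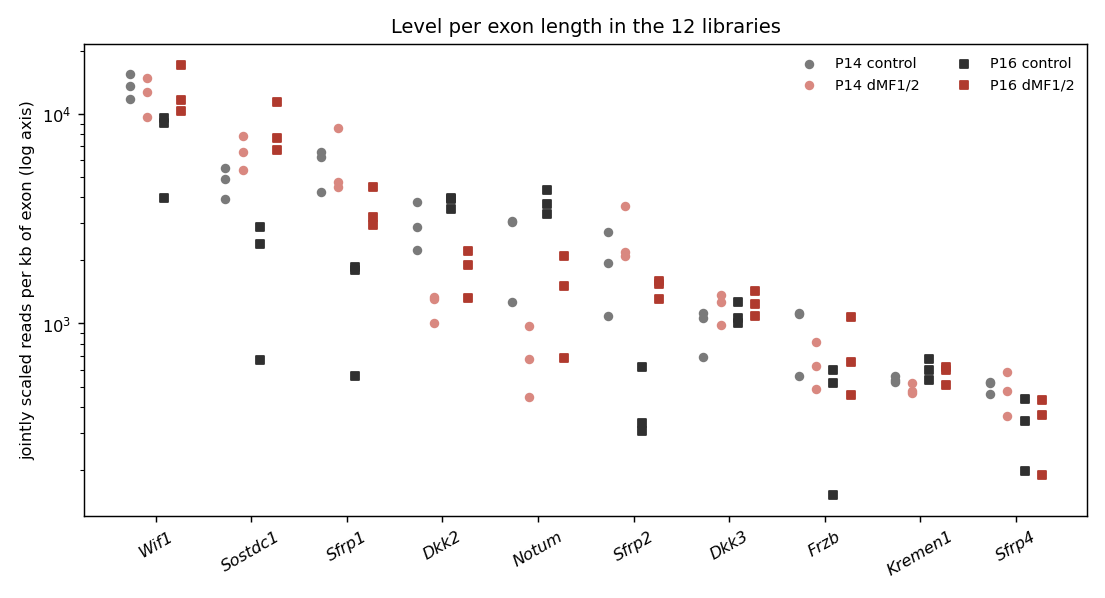
Level of each gene in jointly scaled reads per kilobase of exon on a log axis, with a point for each of the 12 libraries (grey and black, control, and light and dark red, dMF1/2, with circles for P14 and squares for P16). Genes run from the highest median, Wif1 at 11714, to the lowest, Sfrp4 at 434, and the black squares of P16 control lie low for Sostdc1, Sfrp1 and Sfrp2 and high for Dkk2 and Notum.

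The comparison of genotypes asks how loss of the FGF receptors in the DP changed these genes. At P16, Dkk2 was lower in dMF1/2 mice, Sfrp2 and Sostdc1 were higher, and the remaining 7 did not pass limma's test at an adjusted p of 0.05. That is 2 of 10 genes higher, where 2.18% of all 13457 tested genes were higher, and 1 of 10 lower, where 2.14% were lower. With same-numbered libraries blocked as pairs, 6 passed, Notum, Sfrp1 and Wif1 being added, against a background of 10.4% of all genes. The same 6 genes had groups that did not overlap, 4 higher and 2 lower, which was true of 24.5% of all genes. At P14 none of the 10 passed limma's test in either direction, with a background of 0.015% higher and 0.0375% lower of 13334 genes, while 3 had an unadjusted p under 0.05, as did 7.32% of all genes, and edgeR also called none. With the block, Dkk2 and Notum were lower at P14, where 1.68% of all genes passed, and DESeq2 called 2 as well, with 1.55% of all genes. Dkk2, Notum and Kremen1 were the 3 genes whose groups did not overlap at P14, all lower in dMF1/2 mice, against 12.7% of all genes. The median difference of the 10 genes was -0.12 at P14 and 0.52 at P16, where the medians of all tested genes were 0.00478 and -0.00429. The count of 3 at P16, where 4.32% of all genes were called in either direction, was 1 without P16 control replicate 3 (1.37% of all genes) and 1 without P16 dMF1/2 replicate 3 (1.11%), with Sfrp2 the gene left in each case, and 4 without P16 control replicate 1 (2.96%).

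**Figure D2:**
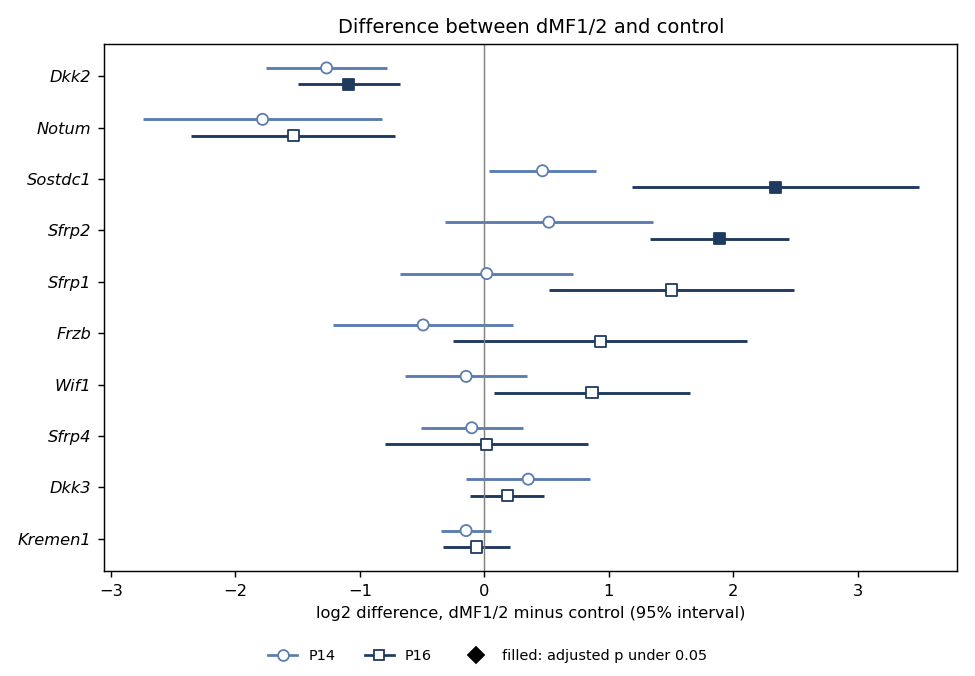
Difference between dMF1/2 and control mice for each gene at P14 (circles) and P16 (squares), on the log2 scale with 95% intervals from limma, where filled symbols passed an adjusted p of 0.05. Dkk2 at -1.09, Sfrp2 at 1.89 and Sostdc1 at 2.34 are the filled symbols, all at P16, and Dkk2 and Notum lie left of 0 on each day.

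The proximal promoters of Dkk2 and Sfrp2, which were called in opposite directions at P16, are shown for reference, as the reference table held them for 4 of the 10 genes (Dkk2, Sfrp2, Frzb and Wif1). They are the 250 bases before the RefSeq start site in GRCm38.p6, at chr3:132085042-132085291 on the plus strand for Dkk2 and at chr3:83766071-83766320 on the plus strand for Sfrp2. Capitals mark matches to the motifs searched on both strands, which were the TCF/LEF core (CTTTGA or CTTTGT), the ETS core (CCGGAA), the AP-1 site (TGAGTCA) and the TATA box (TATAAA).
Dkk2: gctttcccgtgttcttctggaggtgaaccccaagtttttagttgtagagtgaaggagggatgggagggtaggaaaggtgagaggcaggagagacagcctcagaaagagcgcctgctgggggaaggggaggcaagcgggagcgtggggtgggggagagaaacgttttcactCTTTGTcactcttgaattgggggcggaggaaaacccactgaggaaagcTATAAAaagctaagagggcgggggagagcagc
Sfrp2: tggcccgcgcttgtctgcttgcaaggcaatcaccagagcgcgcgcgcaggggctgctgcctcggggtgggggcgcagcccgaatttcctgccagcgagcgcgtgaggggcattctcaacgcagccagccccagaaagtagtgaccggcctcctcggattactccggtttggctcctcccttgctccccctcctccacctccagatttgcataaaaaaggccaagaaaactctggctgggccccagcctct
In Dkk2, CTTTGT began 80 bases and TATAAA 32 bases before the start, and Sfrp2 held no match. Among 32851 promoters of the same length, 27.6% held the TCF/LEF core, 12% the ETS core, 4.46% the AP-1 site and 12.4% the TATA box. A match to letters is not evidence of binding.

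Dkk2 (ENSMUSG00000028031, chromosome 3, 132085292 to 132180304, GRCm38), a Dkk family protein that binds LRP co-receptors and Kremen1, was at about 2 times the level in control DP. At P14 the control libraries held 10579, 8203 and 13870 normalized reads and the dMF1/2 libraries 4764, 3704 and 4883. At P16 the control libraries held 13223, 14916 and 14681 and the dMF1/2 libraries 8363, 5010 and 7167. Every dMF1/2 library was below every control library of its day, and below every control library of the other day too on the common scale. The P14 difference was -1.27 (SE 0.207, 95% interval -1.76 to -0.78), and limma's adjusted p was 0.146, or 0.00176 with the block, within a range of 2.27e-06 (DESeq2) to 0.159 over the settings that used every library. The 3 same-numbered pairs differed by -1.51 to -1.15. At P16 the difference was -1.09 (SE 0.178, 95% interval -1.50 to -0.68, limma's adjusted p = 0.0169), a 2.13-fold lower level, with pair differences of -1.57 to -0.66. The P16 call was lost without P16 control replicate 3 (limma's adjusted p = 0.0687) or without P16 dMF1/2 replicate 3 (0.0611), while the difference stayed at -1.07 and -1.14.

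Notum (ENSMUSG00000042988, chromosome 11, 120653788 to 120661175, minus strand), the Wnt carboxylesterase, was arranged like Dkk2 with a wider spread. Control libraries at P14 held 7337, 3010 and 7272 normalized reads and dMF1/2 libraries 2308, 1060 and 1611. By P16 the control values were 9049, 8140 and 10517, and those of dMF1/2 mice 5146, 1668 and 3711. Control replicate 2 at P14 and dMF1/2 replicate 2 at P16 were the lowest of their groups, and the genotypes did not overlap on either day. Notum differed by -1.78 (SE 0.408) at P14 and by -1.53 (SE 0.356) at P16, with means 3.44-fold and 2.90-fold lower by the fitted difference. By limma without the block neither passed, with adjusted p of 0.290 and 0.0536, and with the block each did, at 0.00154 and 0.0118. Over the alternatives with all libraries kept, the adjusted p ran from 0.00022 to 0.290 at P14 and from 0.0118 to 0.0698 at P16, DESeq2 giving 0.0178 at P16. The 3 pairs differed by -2.17 to -1.50 at P14, and the P16 pairs differed by -0.81, -2.29 and -1.50. Without dMF1/2 replicate 1 or replicate 2 at P16, Notum passed limma's test (adjusted p = 0.0311 and 0.0329), at -1.88 and -1.07.

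Dkk3 and Kremen1 passed no test on either day. Dkk3 (ENSMUSG00000030772, chromosome 7, 112116019 to 112159057, minus strand), a divergent Dkk family member whose action on LRP is less clear, held 2296, 3719 and 3502 normalized reads in P14 control and 3244, 4574 and 4195 in P14 dMF1/2 libraries. At P16 it held 3611, 4329 and 3409 in control and 4262, 4906 and 3725 in dMF1/2 libraries. All 3 pairs were higher in dMF1/2 mice on each day, by 0.26 to 0.50 at P14 and by 0.13 to 0.24 at P16, but the groups overlapped and the differences of 0.35 (95% interval -0.15 to 0.85, limma's adjusted p = 0.846) and 0.18 (-0.12 to 0.48, adjusted p = 0.526) did not pass. Kremen1 (ENSMUSG00000020393, chromosome 11, 5191552 to 5261558, minus strand) held 4024, 4076 and 4277 in P14 control and 3544, 3652 and 3993 in P14 dMF1/2 libraries, and 4224, 4715 and 5273 against 4730, 3974 and 4870 at P16. Its P14 groups did not overlap, with dMF1/2 lower by 0.15 (95% interval -0.35 to 0.06, limma's adjusted p = 0.840, exact permutation p = 0.1, the smallest that 3 against 3 allows). At P16 the Kremen1 groups overlapped, with a difference of -0.07 (95% interval -0.33 to 0.20, adjusted p = 0.831). The Kremen1 intervals thus reach -0.35 at P14 and -0.33 at P16 on the log2 scale.

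Sfrp2 (ENSMUSG00000027996, chromosome 3, 83766321 to 83774316), a secreted protein with a Frizzled-like domain that binds Wnt ligands, was the gene whose genotype call at P16 held in every alternative and with any library left out. In P14 control libraries it had 5812, 4106 and 2313 normalized reads and in P14 dMF1/2 libraries 7724, 4492 and 4672, which overlapped. By P16 the control libraries had 730, 1352 and 671, and the dMF1/2 libraries 2872, 3380 and 3490. The lowest dMF1/2 library at P16 was thus above the highest control. The difference was 0.52 (SE 0.355, limma's adjusted p = 0.883) at P14 and 1.89 (SE 0.242, 95% interval 1.33 to 2.45, limma's adjusted p = 0.00801) at P16, a 3.71-fold higher level. With all libraries kept the P16 adjusted p ranged from 8.49e-12 to 0.012, and it was at most 0.043 with a library left out. The 3 pairs at P16 were higher by 1.32 to 2.38.

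Sfrp1 (ENSMUSG00000031548, chromosome 8, 23411502 to 23449632), a member of the same family, fell in control mice between the days and had separate genotype groups at P16. Its P14 values were 28532, 26986 and 18370 normalized reads in control and 37050, 19467 and 20389 in dMF1/2 libraries, with overlapping groups and a difference of 0.02 (95% interval -0.68 to 0.71, limma's adjusted p = 0.999). At P16 control libraries held 2492, 8305 and 7973, with replicate 1 far below the other two, and dMF1/2 libraries held 13167, 14366 and 19937. The P16 groups did not overlap, and the difference of 1.50 (SE 0.428) did not pass limma's test (adjusted p = 0.0977) but did with the block (0.0184), within a range of 0.0184 to 0.116 over the alternatives with all libraries. All 3 pairs were higher, by 2.40, 0.79 and 1.32. Without P16 control replicate 1 the difference was 0.94 and passed (limma's adjusted p = 0.0353).

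Wif1 (ENSMUSG00000020218, chromosome 10, 121033960 to 121100650), which binds Wnt ligands through its own WIF domain, held 37184, 32669 and 28256 normalized reads in P14 control and 35667, 23168 and 30600 in P14 dMF1/2 libraries. At P16 the control libraries held 9741, 23615 and 22288, and the dMF1/2 libraries 25566, 28710 and 42135. Control replicate 1 was again the lowest, and the P16 groups did not overlap. The Wif1 difference at P16 was 0.86 (SE 0.343, limma's adjusted p = 0.219, or 0.0396 with the block, in a range of 0.0396 to 0.306), and it was 0.45 (adjusted p = 0.372) without P16 control replicate 1. At P14 it was -0.15 (95% interval -0.64 to 0.34).

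Frzb (ENSMUSG00000027004, chromosome 2, 80411970 to 80447625, minus strand), another Wnt-binding protein of the Sfrp family, held 3553, 3600 and 1788 normalized reads in P14 control, 2011, 1561 and 2619 in P14 dMF1/2, 500, 1967 and 1697 in P16 control and 1507, 2164 and 3554 in P16 dMF1/2 libraries. The groups overlapped on each day, and differences of -0.49 (SE 0.306, limma's adjusted p = 0.861) and 0.93 (SE 0.512, adjusted p = 0.387) did not pass, the latter being 0.31 without P16 control replicate 1. Sfrp4 (ENSMUSG00000021319, chromosome 13, 19623175 to 19632821) held 2174, 1899 and 2144 in P14 control and 1491, 1976 and 2432 in P14 dMF1/2 libraries, and 843, 1848 and 1443 against 812, 1554 and 1842 at P16. Replicate 1 was the lowest in each P16 group. Sfrp4 differed by -0.10 (95% interval -0.51 to 0.31) at P14 and by 0.02 (95% interval -0.80 to 0.83) at P16, so a change of up to 0.80 at P16 in either direction lies within its interval.

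Sostdc1 (ENSMUSG00000036169, chromosome 12, 36314169 to 36318452), a cystine-knot protein that binds LRP co-receptors and also BMP ligands, had the largest genotype difference of the 10 genes at P16 with all libraries kept. At P14 the control libraries held 9678, 8616 and 6876 normalized reads and the dMF1/2 libraries 13729, 9508 and 11606, which overlapped. The P16 control libraries held 1209, 5253 and 4317, and the P16 dMF1/2 libraries 12321, 13935 and 20696. Every dMF1/2 library at P16 was more than 2 times the highest control. Sostdc1 was higher by 0.47 (SE 0.182, limma's adjusted p = 0.628) at P14 and by 2.34 (SE 0.500, 95% interval 1.19 to 3.49, limma's adjusted p = 0.042) at P16, 5.06-fold. Pairs at P16 were higher by 3.35, 1.41 and 2.26. Without P16 control replicate 1 the difference was smaller, 1.68, with a limma adjusted p of 0.0091, and below that of Sfrp2, which was then 1.76. The call was lost without P16 control replicate 3 (adjusted p = 0.0793) and without dMF1/2 replicate 1 (0.0884), 2 (0.0946) or 3 (0.145) at P16, where the difference ran from 2.12 to 2.60.

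The genes that were higher in dMF1/2 mice at P16 were higher in the group with the larger DP marker sum. In that comparison 3 of the 10 DP markers (Alpl, Fgf10 and Alx4) were higher by limma and none lower, where 2.18% of all genes were higher. With the block 8 were higher and 1 lower, Prlr at -0.85 (adjusted p = 0.0198), where 10.4% of all genes passed. The part of the marker difference in the values of Sfrp1, Sfrp2, Wif1 and Sostdc1 was not tested. Dkk2 and Notum were lower in the same libraries, opposite in sign to the marker sum. The part of the marker difference in the values of Dkk2 and Notum was not tested either.

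**Figure D3:**
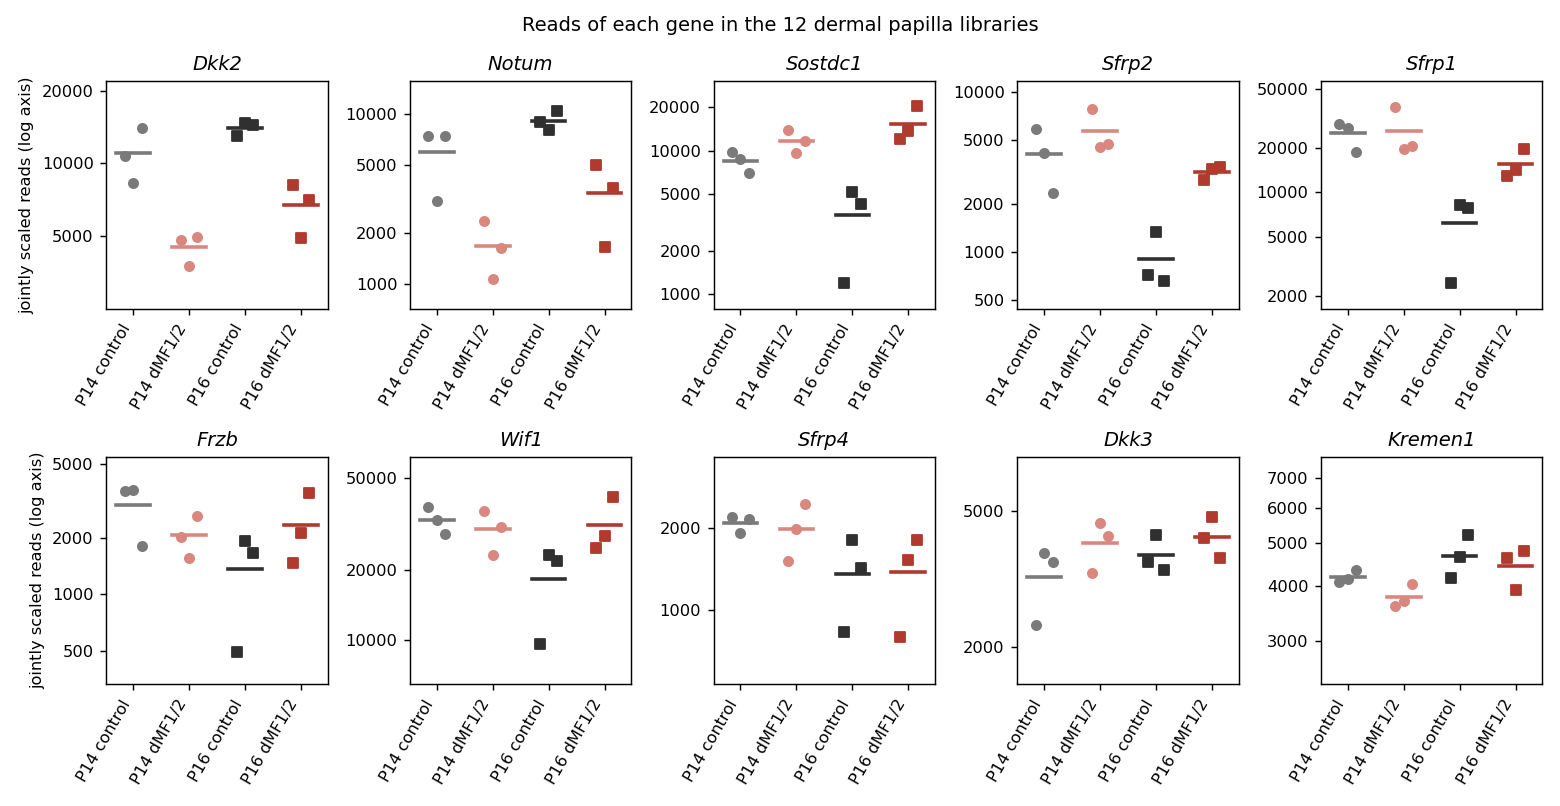
Jointly scaled reads of each gene on a log axis in the 12 libraries, with circles for P14 and squares for P16, grey or black for control and red for dMF1/2 mice, points in the order of the replicate number and a bar at the mean of the 3 libraries. Dkk2 and Notum are lower in dMF1/2 libraries on each day, whereas Sostdc1, Sfrp2 and Sfrp1 are lowest in P16 control.

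The comparison of days asks how each gene moved within a genotype as anagen advanced. In control mice Sfrp1, Sfrp2 and Sostdc1 fell from P14 to P16 and no gene of the 10 rose, against backgrounds of 8.28% of 13415 genes lower and 6.26% higher. The groups of 6 genes did not overlap between the days, with 5 lower and 1, Notum, higher, against 36% of all genes. In dMF1/2 mice none passed limma's test (backgrounds of 3.97% lower and 1.83% higher), 4 had an unadjusted p under 0.05, as did 22.8% of all genes, and edgeR and DESeq2 also called none. Sfrp1 and Sfrp2 were the 2 genes whose dMF1/2 groups did not overlap, each lower at P16, against 27.6% of all genes. The P16 control libraries enter both this comparison and the genotype comparison at P16. The median change of the 10 genes was -0.83 in control and 0.09 in dMF1/2 mice, where that of all genes was 0.0139 and 0.00944. Of the DP markers, 6 of 10 (Corin, Alpl, Sox18, Fgf7, Fgf10 and Alx4) fell in control mice and none in dMF1/2 mice, and the part of this in the falls of Sfrp1, Sfrp2 and Sostdc1 was not tested.

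On the common scale, Sfrp1 went from 24960 ± 5550 (SD, n = 3) to 6166 ± 3216 reads in control mice, a change of -2.18 (SE 0.419, limma's adjusted p = 0.00861), and from 25937 ± 10091 to 15521 ± 3556 in dMF1/2 mice, -0.70 (adjusted p = 0.355). Sfrp2 went from 4131 ± 1772 to 904 ± 370 in control mice, -2.17 (SE 0.340, limma's adjusted p = 0.00355), and from 5695 ± 1854 to 3185 ± 330 in dMF1/2 mice, -0.80 (adjusted p = 0.188). Both control falls passed with any library left out. Sostdc1 went from 8503 ± 1432 to 3540 ± 2083 in control mice, a change of -1.50 (SE 0.437, limma's adjusted p = 0.0412), and from 11746 ± 2164 to 15352 ± 4371 in dMF1/2 mice, 0.37 (adjusted p = 0.678). The Sostdc1 fall rested on a narrow margin. It was -0.84 (adjusted p = 0.0644) without P16 control replicate 1, and it also missed the threshold without P14 control replicate 1 (0.124), 2 (0.0938) or 3 (0.0531), P16 control replicate 3 (0.0531), P14 dMF1/2 replicate 2 (0.0502) or 3 (0.058), and P16 dMF1/2 replicate 1 (0.0531) or 2 (0.0552), the dMF1/2 libraries entering only through the shared spread.

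Among the genes that did not pass, Wif1 changed by -0.95 (SE 0.318, limma's adjusted p = 0.0652) in control and by 0.05 (SE 0.318) in dMF1/2 mice. The control value passed with DESeq2 (adjusted p = 0.0289, in a range of 0.0289 to 0.121) and without P16 control replicate 2 (limma's adjusted p = 0.0466), and it was -0.54 (adjusted p = 0.201) without P16 control replicate 1. Frzb changed by -1.30 (SE 0.489, adjusted p = 0.0944) in control mice, or by -0.68 (adjusted p = 0.301) without P16 control replicate 1, and by 0.12 (SE 0.489, adjusted p = 0.918) in dMF1/2 mice. Sfrp4 changed by -0.70 (adjusted p = 0.158) in control mice, or by -0.38 (adjusted p = 0.475) without P16 control replicate 1. In dMF1/2 mice Sfrp4 changed by -0.58 (adjusted p = 0.308). Dkk2 and Notum had positive values in each genotype. Dkk2 went from 11029 ± 2880 to 14066 ± 899 reads in control mice, 0.38 (SE 0.210, adjusted p = 0.237), and from 4500 ± 661 to 6712 ± 1649 in dMF1/2 mice, 0.56 (adjusted p = 0.139), so that P16 dMF1/2 mice remained below P14 control mice without overlap. Notum went from 5951 ± 2509 to 9104 ± 1203 in control mice, 0.72 (SE 0.433, adjusted p = 0.281, with no overlap of the days), and from 1679 ± 637 to 3438 ± 1705 in dMF1/2 mice, 0.96 (adjusted p = 0.214). With a library left out, the Notum change in control mice ran from 0.29 to 0.93. The Notum ranges of P16 dMF1/2 and P14 control overlapped. Dkk3 and Kremen1 changed by 0.06 to 0.24 in either genotype, with adjusted p from 0.207 to 0.884.

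**Figure D4:**
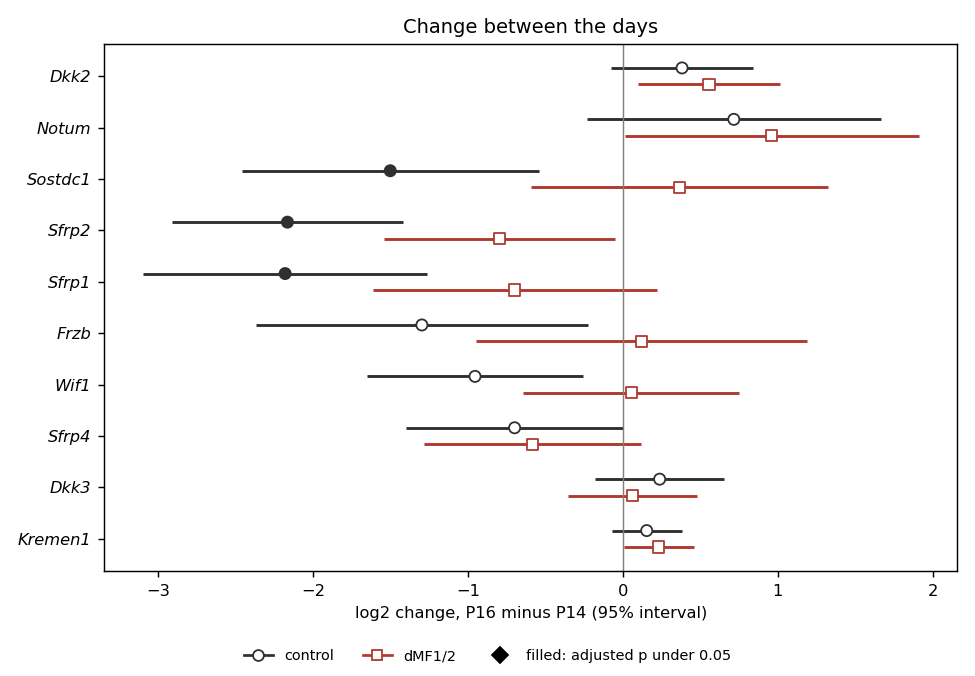
Change from P14 to P16 of each gene in control (black circles) and dMF1/2 mice (red squares), on the log2 scale with 95% intervals from limma, where filled symbols passed an adjusted p of 0.05. Sfrp1 at -2.18, Sfrp2 at -2.17 and Sostdc1 at -1.50 in control are the filled symbols, and no dMF1/2 symbol is filled.

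Whether the genotype difference itself changed between the days was tested by the interaction of genotype and day, which no gene of the 10 and 0% of 13415 genes passed by limma. At an unadjusted p under 0.05 there were 648 genes, 4.83% of those tested, and 4 of the 10. Over all genes edgeR called 0 and DESeq2 called 7, none of the 10. The 4 genes were Sostdc1 at 1.87 (SE 0.618, unadjusted p = 0.0111 from limma across all genes), Sfrp2 at 1.37 (SE 0.481, 0.0152), Sfrp1 at 1.48 (SE 0.593, 0.0287) and Wif1 at 1.01 (SE 0.449, 0.0455), each with an adjusted p of 1. Without P16 control replicate 1 they were 1.21 for Sostdc1, 1.24 for Sfrp2, 0.91 for Sfrp1 and 0.60 for Wif1. For Dkk2 and Notum the interaction was 0.17 (95% interval -0.48 to 0.83) and 0.24 (95% interval -1.10 to 1.59). A difference between the days in the genotype effect was therefore not established for any of the 10 genes, and the intervals of Sostdc1 (0.51 to 3.22) and Sfrp2 (0.32 to 2.42) are wide.

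The genes with the profile most like that of each called gene were found over the 12 libraries, as the smallest root mean square (RMS) difference of log2 profiles centred on their means, among 13415 genes. For Dkk2 they were Vldlr at 0.188, Tgm1 at 0.210 and Tnfrsf21 at 0.211, where Dkk2 itself varied by 0.681 about its mean. For Sfrp2 they were Amph at 0.265, Plin1 at 0.298 and Rnf180 at 0.306, against its own 1.09. For Sostdc1 they were Cnr1 at 0.182, Adgrv1 at 0.204 and Chodl at 0.206, against 1.03. The measure is a description of these libraries, which share the same 4 groups.

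The other genes of the pathway were counted in lists. At P16 limma called 2.18% of all tested genes higher and 2.14% lower, and 10.4% passed with the block. With the block at P14, 1.68% passed. Between the days limma called 14.5% of all genes in control and 5.8% in dMF1/2 mice. Of 9 further Wnt antagonists tested at P16 none passed limma's test, with a median difference of 0.14, and with the block 2 were higher, Shisa2 at 0.93 (SE 0.241, adjusted p = 0.0751 without and 0.0186 with the block) and Igfbp4 at 0.42 (0.126 and 0.024), and Tpbg was lower at -0.58 (0.0508 and 0.0095). Of 8 tested R-spondins and other agonists with their Lgr receptors, 4 were higher in dMF1/2 mice at P16 and none lower, with a median of 1.16. They were Rspo3 at 3.20 (SE 0.336, limma's adjusted p = 0.00502), Rspo2 at 3.03 (SE 0.351, 0.00604), Lgr4 at 1.29 (SE 0.172, 0.00862) and Ndp, which encodes a Frizzled ligand, at 1.02 (SE 0.144, 0.0104), and 6 were higher with the block. The list of Wnt ligands had 13 genes tested at P16, among them Porcn and Wls, which are not ligands. Wnt5a at 0.82 (SE 0.115, limma's adjusted p = 0.0107) and Wnt5b at 1.06 (SE 0.129, 0.00644) were higher and Wnt16 at -1.64 (SE 0.242, 0.012) was lower, with 2 lower under the block. Of 16 receptors, Fzd10 alone passed at P16, higher by 2.14 (SE 0.382, limma's adjusted p = 0.0228), and 1 receptor was lower with the block. None of 8 feedback targets and transcription factors of the pathway passed at P16, where the median was 0.09, and with the block 2 were higher and 1 lower. At P14 no gene of these 5 lists passed limma's test, and with the block 3 agonist genes, 2 ligands and 1 receptor were higher and 1 agonist gene, 1 receptor, 2 feedback genes and 1 antagonist lower. In control mice from P14 to P16, Rspo1, Rspo2, Rspo3 and Rspo4 fell by 0.98, 2.81, 2.74 and 1.95, Lef1 by 1.16 and Igfbp4 by 0.55 on the log2 scale, all with limma's adjusted p of 0.00177 to 0.0349. Fzd1, Fzd10, Wnt2 and Wnt5b also fell there, by 0.45, 1.47, 1.54 and 0.70, and Fzd5 rose by 0.63, with limma's adjusted p of 0.0247 to 0.0364. In dMF1/2 mice between the days, Fzd3 rose by 0.50 (limma's adjusted p = 0.0169) and Wnt10b fell by 2.11 (limma's adjusted p = 0.0357), and no other gene of the 5 lists passed by limma without the block.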

How the data were processed

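DP cells sorted for YFP from 3 control and 3 dMF1/2 mice at P14 and at P16 were profiled by stranded, single-end RNA-seq after ribosomal depletion. The authors trimmed with Trimmomatic, mapped to mm10 (GRCm38.p4) with TopHat2, counted with HTSeq per gene and normalized with DESeq2. The deposited signal values are gene-level reads after division by each library's size factor, scaled separately over the 6 libraries of a day, for protein-coding genes. Each value was within 0.001 of a whole multiple of the value of 1 read in its library (100% of values), so whole reads were recovered. The authors' fold changes, score columns and p-values of their own DESeq2 tests were deposited too and were not used.

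Genotypes were compared within a day in the deposited scaling, and days in a single fit of 4 groups, for which the recovered reads of the 14986 genes in both tables were put on a common scale by median of ratios. limma 3.58.1 (R 4.3.3, empirical Bayes with a mean-variance trend) was run on log2(value + 1), on genes whose mean reached 10, with Benjamini-Hochberg adjustment over all genes and a threshold of 0.05. Single genes had exact two-sided permutation tests, whose smallest p for 3 against 3 is 0.1. Gene positions are those deposited with the values, exon lengths came from GENCODE and promoters from RefSeq, on the same primary assembly. In GENCODE the start differed for Sostdc1, Dkk3 and Sfrp4, and the end for Sfrp4. Scripts were tested on simulated data.

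Libraries with the same number deviated together within a day, by correlations across genes of 0.586, 0.389 and 0.304 at P14 and 0.256, 0.293 and 0.311 at P16, whereas across days they did not (control, -0.0545, -0.0621 and -0.13, and dMF1/2, 0.0292, 0.208 and -0.162). Same-numbered libraries of a day were therefore also blocked as pairs. Between the days, where no pairing is known, blocking by number was used only as an alternative setting. The value with the block is given where it changed a call of the 10 genes or moved a count by more than 1.5 times, and for the gene lists mainly as counts.

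Alternatives were the block, edgeR 4.0.16 and DESeq2 1.42.0 on the recovered reads, TMM scaling, pseudocounts of 0.1 and 10, no filter, a minimum of 10 reads in all libraries, fits of more or fewer libraries together, no mean-variance trend, and leaving out each library. Leaving out both P14 libraries numbered 1 was added after seeing the data. The members and gene lists were chosen with earlier results of these data known. Named genes were the 10 members, for each member called by genotype the 3 genes of most similar profile, and list genes that passed. Some genes of the lists are not reported here.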

Additional observations from a re-analysis of the deposited data

How the results depend on the processing

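With all libraries kept, 438 single-gene values stayed on their side of the threshold in the same direction, 10 passed it newly, 2 lost it and 0 changed sign. With libraries left out these numbers were 472, 4, 16 and 28. At P14 the count of called genes was 0 as reported (0.0525% of all genes called), 2 with the replicate block (1.68%) and 2 with DESeq2 (1.55%). At P16 it was 3 as reported (4.32%), 6 with the block (10.4%), and 1 to 4 with a library left out (1.11% to 5.08%). In dMF1/2 mice between the days, where the numbers pair no samples, it was 0 as reported and 1 (Notum, adjusted p = 0.0386) with the block, which called 7.04% of all genes there. Between the days the block joined same-numbered libraries of both days, which came from different mice. Its calls there show a change of setting and not a result of pairing. In the Wnt lists it added Draxin at -1.13 (adjusted p = 0.0403) and Lrp5 at 0.25 (0.0492) in control mice. In dMF1/2 mice it added Fzd5 at 0.60 (0.0347) and Lef1 at -0.80 (0.0384). Among the 10 genes, the block changed no call beyond those named here and in the results. In control mice between the days, the count was 3 as reported (14.5% of all genes called), 2 with edgeR (15.1%), 4 with DESeq2 (19.2%) and 2 to 4 with a library left out (5.17% to 15.9%). The 2 lost calls with all libraries kept were the control fall of Sostdc1 with edgeR (adjusted p = 0.0568) and in a fit of the compared libraries only (0.111).

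Signs changed with a library left out only for values near 0 as reported, none of which had passed. At P14 the ranges of the log2 difference were -0.28 to 0.18 for Sfrp1, -0.27 to 0.0838 for Sfrp4 and -0.29 to 0.0237 for Wif1. At P16 they were -0.30 to 0.37 for Sfrp4 and -0.15 to 0.0248 for Kremen1. In dMF1/2 mice between the days they were -0.0783 to 0.17 for Dkk3, -0.20 to 0.42 for Frzb and -0.16 to 0.20 for Wif1. For the interaction they were -0.0169 to 0.38 for Dkk2, -0.32 to 0.0442 for Dkk3, -0.10 to 0.71 for Notum, -0.20 to 0.47 for Sfrp4 and -0.0025 to 0.17 for Kremen1. Without both P14 libraries numbered 1, Sfrp1 was at -0.16 and Sfrp4 at 0.12 at P14, Dkk3 at -0.0783 in dMF1/2 mice between the days, and the Sfrp4 interaction at -0.10. The cause was not tested. The counts of called genes without that pair were 0 at P14 (0.0676% of all genes called), 2 in control mice (7.09%) and 0 in dMF1/2 mice (6.1%) between the days, and 0 for the interaction (0.0149%). With 3 mice a group, the spread between mice sets the width of the intervals.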

Other observations

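The profiles most like those of Notum and Sfrp1, which the rule for named genes does not cover, were chosen after their values were seen. For Notum, whose log2 values varied by 1.07 about their mean over the 12 libraries, the gene with the smallest RMS difference was Prdm1, a transcriptional repressor, at 0.174. For Sfrp1, which varied by 1.02, they were Rspo4, an R-spondin, at 0.203, and Corin, the protease gene whose locus drives Cor-cre, at 0.205.

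P16 control replicate 1 was the lowest control library in 7 of the 10 genes and the highest in 0, and P16 control replicate 2 was the highest in 8. P16 dMF1/2 replicate 1 was the lowest dMF1/2 library in 6, and P16 dMF1/2 replicate 3 the highest in 7. At P14 dMF1/2 replicate 2 was the lowest of its group in 7 of the 10 genes. The same counts over all genes are not given, so a trait of these genes cannot be told from one of the whole library.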
